A study of Homo sapiens with 12 samples.

Results

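Long noncoding loci from the NONCODE catalogue were followed in melanoma cells exposed to compounds directed at telomerase. The 1913 loci described here were the rows of the deposited count table with a NONCODE gene identifier (prefix NONHSAG) whose raw counts, summed over the 12 libraries, reached at least 1200. They were 3.54% of the 54072 NONCODE rows and 2.54% of the 75249 rows kept. Since they were selected on these measured counts, their abundance is a description and not a finding. All 1913 passed the filter on low counts that preceded testing.

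The libraries came from A375 and LOX-IMVI BR, established lines grown from human metastatic melanoma. Each line was given a control, 6-thio-dG at 5 µM or BIBR1532 at 25 µM, and each of these 6 groups held 2 libraries. The compound 6-thio-dG is a modified nucleoside that telomerase can build into chromosome ends as thioguanine, and BIBR1532 is a small-molecule inhibitor of telomerase. Total RNA was taken with TRIzol, and the library kit did not keep the strand. The sources used here do not say what BR stands for, which vehicle the control received or how long cells were exposed, and no allele or further agent is named for any group. The labels call the libraries biological replicates without saying that they came from separate cultures, so p-values measure the spread between these libraries, which may be technical.

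Long noncoding RNAs are transcripts that are not known to encode a protein. Most are made by RNA polymerase II, many are capped, spliced and polyadenylated, and many stay in the nucleus. A large share of them are short-lived because the nuclear exosome degrades them soon after synthesis, with Integrator and the cleavage and polyadenylation machinery setting where their transcription ends. NONCODE gathers such transcripts from many sources, so that a NONCODE locus may lie between genes, within an intron or opposite a gene. No file used here pairs the identifiers with a gene name, a position, a length or a sequence, so the loci are given by identifier, no sequence is shown and levels are never compared between loci. Without strand, reads of a locus and of an overlapping gene on the opposite strand cannot be told apart, and the sources used here do not say how reads in overlaps were assigned.

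Total counts ranged from 11813388 to 25822381 per library, and the median locus held between 86 and 278 counts per library. Levels are CPM, counts relative to a library total scaled by TMM, a factor that balances composition between libraries. Among these loci the replicates of A375 lay far apart in 2 groups: the median over loci of the absolute log2 difference was 0.72 in the control and 0.60 with 6-thio-dG, but 0.14 with BIBR1532. In LOX-IMVI BR it was 0.11 in the control, 0.09 with 6-thio-dG and 0.17 with BIBR1532. Replicate 2 of the A375 control stood apart, with 34297 rows detected against 41760 in replicate 1 and a TMM factor of 0.746 against 1.037. SOX10, a transcription factor of the melanocyte lineage, averaged 551 CPM in the A375 control and 0.592 CPM in the LOX-IMVI BR control, while the pigment genes PMEL and MLANA stayed under 1 CPM and TYR was at 0 in both controls. All 6 epithelial markers had counts in every group, with sums of 292 to 481 CPM in the A375 control and 39.9 to 43.7 CPM in the LOX-IMVI BR control. KRT8 and KRT18, keratins of simple epithelia, averaged 127 and 259 CPM in the A375 control, while EPCAM and CDH1 stayed under 1 CPM in all 6 group means.

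The 1913 loci were spread over a wide range of abundance. Their summed counts ran from 1200 to 446837, with a median of 2392 and quartiles of 1612 and 4461. The 3 most counted loci held 11.2% of the counts of the set, the top 10 held 20.2% and the top 100 held 41.4%. Together the loci took 72.8% of all NONCODE counts. A count was present in all 12 libraries for 1820 loci, and 1452 had at least 20 counts in every library. For 121 loci, 1 of the 6 groups held over 50% of the summed group-mean CPM. A summed count lets a locus in through 1 group alone, so large changes at such loci are favoured by the selection. At the threshold, NONHSAG033133 with 1200 counts and NONHSAG029022 with 1202 were the last inside, and NONHSAG024567 and NONHSAG046713, with 1199 each, were the first outside.

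Counts in these loci took a larger share of the library with 6-thio-dG than in the control in both lines. In A375 the share was 4.6% and 3.47% of all counts under control, 4.81% and 5.12% under 6-thio-dG, and 3.97% and 4.14% under BIBR1532. In LOX-IMVI BR it was 3.33% and 3.42% under control, 5.42% and 5.24% under 6-thio-dG, and 3.5% and 3.57% under BIBR1532. Both 6-thio-dG libraries of each line lay above both control libraries, BIBR1532 lay inside the control range in A375 and just above it in LOX-IMVI BR. The mean was 4.96 ± 0.22% (SD, n = 2) with 6-thio-dG against 4.03 ± 0.799% in the A375 control, and 5.33 ± 0.122% against 3.38 ± 0.0664% in the LOX-IMVI BR control. The exact two-sided permutation test gave p = 0.333 for both, which is the smallest p that 2 libraries against 2 allow. Without the 3 most counted loci the A375 groups overlapped, at 4.3% and 3.15% in the control against 4.27% and 4.48% with 6-thio-dG. In LOX-IMVI BR they stayed apart, at 2.94% and 3% against 4.47% and 4.37%. As a share of NONCODE counts alone the loci fell from 76.2% to 70.5% in A375 and from 74.4% to 73.1% in LOX-IMVI BR, without overlap between the libraries, so that the less counted NONCODE rows gained proportionally more. In bulk samples fewer cells of a type and less RNA per cell cannot be told apart.

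**Figure D1:**
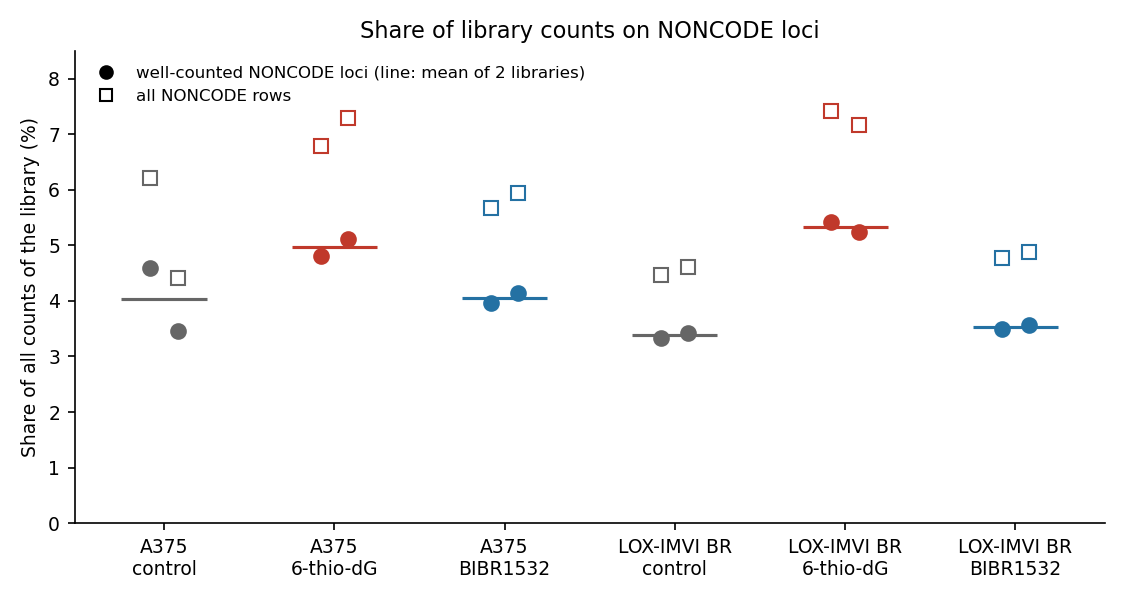
Share of all counts (percent, y axis) that fell in the 1913 NONCODE loci, by line and treatment, with a point for each of the 12 libraries and a bar for the mean of 2. The 6-thio-dG libraries lie between 4.81% and 5.42%, above the control libraries of their line, and the 2 A375 control libraries lie apart at 4.6% and 3.47%.

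The 3 most counted loci behaved differently from each other. NONHSAG032337 (273488 summed counts) stood at 324 and 771 CPM in the A375 control, 2620 and 2910 CPM with 6-thio-dG, and 269 and 297 with BIBR1532. In LOX-IMVI BR it stood at 289 and 352 CPM in the control, 2790 and 2590 CPM with 6-thio-dG, and 467 and 219 with BIBR1532. All 4 libraries with 6-thio-dG were several times above all 8 others. The 6-thio-dG groups of A375 and LOX-IMVI BR held 74649 and 144570 of its summed counts, so its choice by summed count favours this rise. The rise was 2.34 ± 0.41 on the log2 scale in A375 (± SE from the fit, adjusted p = 0.00203 by edgeR's quasi-likelihood test with Benjamini-Hochberg adjustment over all rows tested) and 3.07 ± 0.42 in LOX-IMVI BR (adjusted p = 0.000291). All further adjusted p-values come from this test. NONHSAG020957 (392689 counts) stood at 1380 and 3110 CPM in the A375 control and at 779 and 709 with BIBR1532, a log2 change of -1.59 ± 0.35 (adjusted p = 0.00825). In LOX-IMVI BR it stood at 1820 and 1740 CPM in the control and at 790 and 689 with BIBR1532, a log2 difference of -1.27 ± 0.34 that did not pass (adjusted p = 0.0549). It passed with factors from gene-symbol rows (adjusted p = 0.0274), at 1 CPM in 2 libraries (0.0477), without a filter (8.82e-06), with the DESeq2 test (0.0288) and in LOX-IMVI BR alone (1.29e-13). In both lines the BIBR1532 libraries lay below the control libraries without overlap. The A375 call was lost without BIBR1532 replicate 1 or 2 (adjusted p = 0.0831 and 0.0981) and in A375 alone (0.0967). NONHSAG008670 (446837 counts) passed against control with neither compound in either line. In A375 it passed once control replicate 1 was left out for BIBR1532 (log2 change 1.67, adjusted p = 0.00344) and control replicate 2 for 6-thio-dG (-0.88, adjusted p = 0.0363). Its control levels were 1150 and 361 CPM in A375 and 2380 and 2620 CPM in LOX-IMVI BR, higher in LOX-IMVI BR by 1.73 ± 0.42 (adjusted p = 0.00322).

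In A375, 6-thio-dG raised 224 of the 1913 loci and lowered 173. Over all 29114 rows tested 9.86% were called higher and 8.21% lower (18.1% either way), so the shares of these loci, 11.7% and 9.04%, lay near the background. Gene-symbol rows with at least 1200 summed counts, 10183 in number, went another way, with 451 called higher and 1549 lower. The median log2 change was 0.05 over the loci, -0.37 over those gene-symbol rows and 0.03 over all rows tested. The gap of 0.42 between the first 2 medians lay between 0.40 and 0.43 under the 3 other scalings tried, which move both alike. Of the 224 loci that rose, 115 had at least 200 counts in the control pair. Among the 12762 NONCODE rows tested under the threshold, 11.9% were called higher and 2.75% lower, with a median of 0.44. The difference from the gene-symbol rows was thus larger there and not particular to these loci.

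The largest rises belonged to a pair of loci whose identifiers lie close together. Both reached the count threshold through A375 with 6-thio-dG, which held 3991 of 4054 summed counts of NONHSAG026072 and 1394 of 1431 of NONHSAG026068. Their rises are therefore favoured by the selection and are a description. NONHSAG026072 stood at 0.15 and 0.181 CPM in the A375 control, from 6 counts in the pair, and at 174 and 128 CPM with 6-thio-dG, from 3991 counts. With BIBR1532 it stood at 1.3 and 0.97 CPM. Its 6-thio-dG libraries were far above the control, by 9.83 ± 0.53 on the log2 scale (adjusted p = 3.15e-07), and BIBR1532 also passed at 2.78 ± 0.55 (adjusted p = 0.00485). NONHSAG026068 went from 0.112 and 0.0905 CPM, 4 counts in the pair, to 58.9 and 46.3 CPM with 6-thio-dG, a rise of 8.88 ± 0.5 (adjusted p = 8.37e-07). Neither locus rose in LOX-IMVI BR, where each library held at most 0.151 CPM of the first and 0.0685 CPM of the second. The largest falls were in a pair with consecutive identifiers. NONHSAG017641 stood at 90 and 27.2 CPM in the control and at 1.84 and 2.35 CPM with 6-thio-dG, a log2 change of -4.8 ± 0.53 (adjusted p = 9.14e-05). Its control libraries differed more than 3-fold. Loci named as the largest changes between groups were chosen for pairs that do not overlap, so a lack of overlap at them is no support. NONHSAG017640 changed by -4.43 ± 0.5 (adjusted p = 0.00011).

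The A375 counts depended on single libraries and on the scaling. Without control replicate 1, 444 loci were called higher, without control replicate 2, 149, and without 6-thio-dG replicate 2, 431 higher and 372 lower. Upper-quartile scaling, which moved the median of all rows by 0.40, gave 428 higher and 105 lower, so that 80.3% of the calls were higher in place of 56.4%, and the A375 libraries fitted alone gave 37 higher and 32 lower. Marker genes moved with this comparison too: the 10 dedifferentiated melanoma markers summed to 4760 to 5420 CPM in the A375 control and 798 to 1260 CPM with 6-thio-dG. The 7 leukocyte markers summed to 177 to 425 and 766 to 1000 CPM, led by CD68, a lysosomal gene, at means of 296 and 858 CPM. Of the others LCP1 averaged 2.74 and 20 CPM, LYZ 0.92 and 4.79 CPM, and PTPRC, the defining leukocyte marker, 0.109 and 0.117 CPM. The part of these lists in the counts was not tested.

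BIBR1532 in A375 raised 188 loci and lowered 178, where 8.49% of all rows tested were called higher and 7.29% lower (15.8% either way). The shares of the loci were 9.83% and 9.3%. Among the gene-symbol rows at the same count 645 were called higher and 1237 lower. The median log2 change was 0.05 over the loci, -0.24 over those gene-symbol rows and -0.04 over all rows. The 15 melanocyte lineage markers summed to 664 to 778 CPM in the control and 1500 to 1670 CPM with BIBR1532, led by SOX10 at means of 551 and 1330 CPM. The list did not move as a whole. S100B averaged 15.5 and 38.8 CPM and RAB38 62.1 and 108 CPM, while MITF averaged 40 and 8.05 CPM. The leukocyte markers summed to 177 to 425 and 592 to 646 CPM, and the part of either list in these counts was not tested. NONHSAG039999 stood at 0.299 and 0.362 CPM in the control, 9.1 and 4.5 CPM with 6-thio-dG, and 24.5 and 23.2 CPM with BIBR1532. BIBR1532 lay above the control by 6.19 ± 0.52 (adjusted p = 2.06e-05) and 6-thio-dG by 4.37 ± 0.52 (adjusted p = 0.000301). In LOX-IMVI BR this locus had no count in 5 of the 6 libraries. A375 with BIBR1532 held 1024 of its 1213 summed counts and 1659 of the 1818 of NONHSAG045254. Both loci thus reached the count threshold through that group, which favours their rise. NONHSAG045254 went from 0.673 and 0.634 CPM to 37.5 and 39.9 CPM with BIBR1532, a rise of 5.86 ± 0.4 (adjusted p = 1.16e-06), while with 6-thio-dG it stood at 1.34 and 1.01 CPM and did not pass (adjusted p = 0.199).

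The largest falls with BIBR1532 were less certain. The A375 control pair held 3864 of the 4471 summed counts of NONHSAG047282 and 1888 of the 3033 of NONHSAG036291. Both loci thus reached the count threshold through that pair, which favours a fall against it. NONHSAG047282 stood at 105 and 95.8 CPM in the A375 control, 1.17 and 12.4 CPM with 6-thio-dG, and 7 and 11.1 CPM with BIBR1532. The fall with BIBR1532 was -3.47 ± 0.66 (adjusted p = 0.00402). It did not pass without BIBR1532 replicate 1 or 2 (adjusted p = 0.0778 and 0.0639). NONHSAG036291 stood at 22.8 and 116 CPM in the control and at 6.37 and 8.24 CPM with BIBR1532, a log2 change of -3.24 ± 0.98 (adjusted p = 0.0385). The 2 control libraries lay far apart. Leaving out any of these 4 libraries ended the call (adjusted p from 0.0558 to 0.38), as did factors from gene-symbol rows (0.0828), 1 CPM in 2 libraries (0.0738), the A375 libraries alone (0.117) and the DESeq2 test (0.145). The count of loci called higher was 425 without control replicate 1, and it was 67 and 69 without BIBR1532 replicates 1 and 2, with 17 and 14 called lower. Loci called higher made up 51.4% of the calls, 65.7% with upper-quartile scaling and 67.3% with factors taken from gene-symbol rows, and the A375 libraries alone gave 50 higher and 20 lower.

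In LOX-IMVI BR, 6-thio-dG raised 217 loci and lowered 116, where 9.81% of all rows tested were called higher and 7.16% lower (17% either way). The shares of the loci were 11.3% and 6.06%. Gene-symbol rows at the same count gave 305 higher and 1270 lower. The median log2 change was 0.13 over the loci, -0.22 over those rows and 0.05 over all rows, and the gap of 0.35 lay between 0.35 and 0.36 under the other scalings. Of the loci that rose, 105 had at least 200 counts in the control pair. The 12762 NONCODE rows tested under the threshold differed more from the gene-symbol rows, with 13.6% called higher, 3.24% lower and a median of 0.39.

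NONHSAG011557 stood at 0.352 and 0.228 CPM in the LOX-IMVI BR control, 11.7 and 13.3 CPM with 6-thio-dG, and 2.54 and 1.73 CPM with BIBR1532. The rise with 6-thio-dG was 5.42 ± 0.62 (adjusted p = 7.11e-05). In A375 the same locus went the other way, from 16 and 13.1 CPM to 1.42 and 6.58 CPM, a log2 change of -1.84 ± 0.48 (adjusted p = 0.0178). NONHSAG015051 stood at 0 and 0.273 CPM in the LOX-IMVI BR control, 4.49 and 6.07 CPM with 6-thio-dG, and 3.63 and 2.76 CPM with BIBR1532. In A375 it stood at 1.05 and 0.905 CPM in the control, 17.5 and 22.2 CPM with 6-thio-dG, and 15.1 and 16.7 CPM with BIBR1532. It was among 7 loci called higher in all 4 comparisons of a compound with control, by 5.16 ± 0.59 and 4.42 ± 0.61 in LOX-IMVI BR and by 4.32 ± 0.47 and 4 ± 0.47 in A375 for 6-thio-dG and BIBR1532 (adjusted p from 7.11e-05 to 0.0007). The control pairs of A375 and LOX-IMVI BR held only 38 and 6 of its 1667 summed counts. NONHSAG015051 thus reached the count threshold through the treated groups, which favours a rise in each comparison. Over all 29114 rows tested 34 were called higher in all 4 and 3 lower, and none of the loci was called lower in all 4.

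The largest falls were in loci well counted in the LOX-IMVI BR control. NONHSAG043834 stood at 137 and 146 CPM in the control, 6.1 and 7.28 CPM with 6-thio-dG, and 53 and 65.4 CPM with BIBR1532. The fall with 6-thio-dG was -4.4 ± 0.39 (adjusted p = 9.82e-06). NONHSAG041622 stood at 169 and 170 CPM in the control and at 10.1 and 9.35 CPM with 6-thio-dG, a log2 change of -4.12 ± 0.34 (adjusted p = 5.64e-06). In A375 it was nearly silent, at 0.134 to 0.533 CPM in all 6 libraries. Marker genes of other cell types moved with the same comparison. All 7 fibroblast markers had counts, and their summed level was 1720 to 1740 CPM in the LOX-IMVI BR control and 34.4 to 35.5 CPM with 6-thio-dG, led by COL1A1, a collagen gene, at a mean of 1630 and 15.5 CPM. All 10 markers of dedifferentiated melanoma had counts, and their sum went from 6420 to 6570 CPM in the control to 2750 to 2920 CPM. Among them NT5E went the other way, at means of 155 and 220 CPM. The part of either list in the results on the loci was not tested.

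Leaving out any 1 of the 4 libraries left between 57 and 85 loci called higher and between 37 and 49 lower. Loci called higher made up 65.2% of the calls, 78.6% with upper-quartile scaling and 75.6% with factors from gene-symbol rows, and the LOX-IMVI BR libraries alone gave 764 higher and 482 lower.

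For BIBR1532 in LOX-IMVI BR, 83 loci were called higher and 21 lower, where 2.9% of all rows tested were called higher and 0.69% lower (3.59% either way). These were fewer calls than in A375, but only with the spread shared by the lines. Each line fitted alone gave the reverse order, 510 higher and 544 lower in LOX-IMVI BR against 50 and 20 in A375. The shares of the loci were 4.34% and 1.1%. Gene-symbol rows at the same count gave 278 higher and 83 lower, and the medians were 0.03 over the loci, 0.06 over those rows and 0.04 over all rows. NONHSAG049750 stood at 0.552 and 0.774 CPM in the control, 0.0802 and 0.138 CPM with 6-thio-dG, and 11 and 9.69 CPM with BIBR1532. It rose with BIBR1532 by 3.94 ± 0.38 (adjusted p = 6.21e-05) and fell with 6-thio-dG (log2 change -2.52 ± 0.54, adjusted p = 0.00541). NONHSAG047221 went from 1.51 and 1.59 CPM to 27.1 and 20.4 CPM with BIBR1532, a rise of 3.93 ± 0.39 (adjusted p = 8.74e-05). Both loci also rose with BIBR1532 in A375, by 3.31 ± 0.34 and 3.01 ± 0.38 (adjusted p = 3.51e-05 and 0.000157). A375 with BIBR1532 held 1288 of the 1833 summed counts of NONHSAG049750. For NONHSAG047221, A375 and LOX-IMVI BR with BIBR1532 held 907 and 831 of 1982. Both loci thus reached the count threshold through BIBR1532 libraries. Their rises in both lines are favoured by the selection and are a description.

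Falls with BIBR1532 were smaller in LOX-IMVI BR. NONHSAG037936 stood at 146 and 137 CPM in the control and at 31.7 and 32.1 CPM with BIBR1532, a log2 change of -2.15 ± 0.3 (adjusted p = 0.000864). NONHSAG020361 went from 37 and 38.6 CPM to 10.3 and 10.7 CPM, a log2 change of -1.84 ± 0.31 (adjusted p = 0.00313). The call on NONHSAG020361 was lost without control replicate 2 and without BIBR1532 replicate 1 or 2. Leaving out any 1 of the 4 libraries left between 18 and 42 loci called higher and between 1 and 3 lower, and the LOX-IMVI BR libraries alone gave 510 higher and 544 lower.

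**Figure D2:**
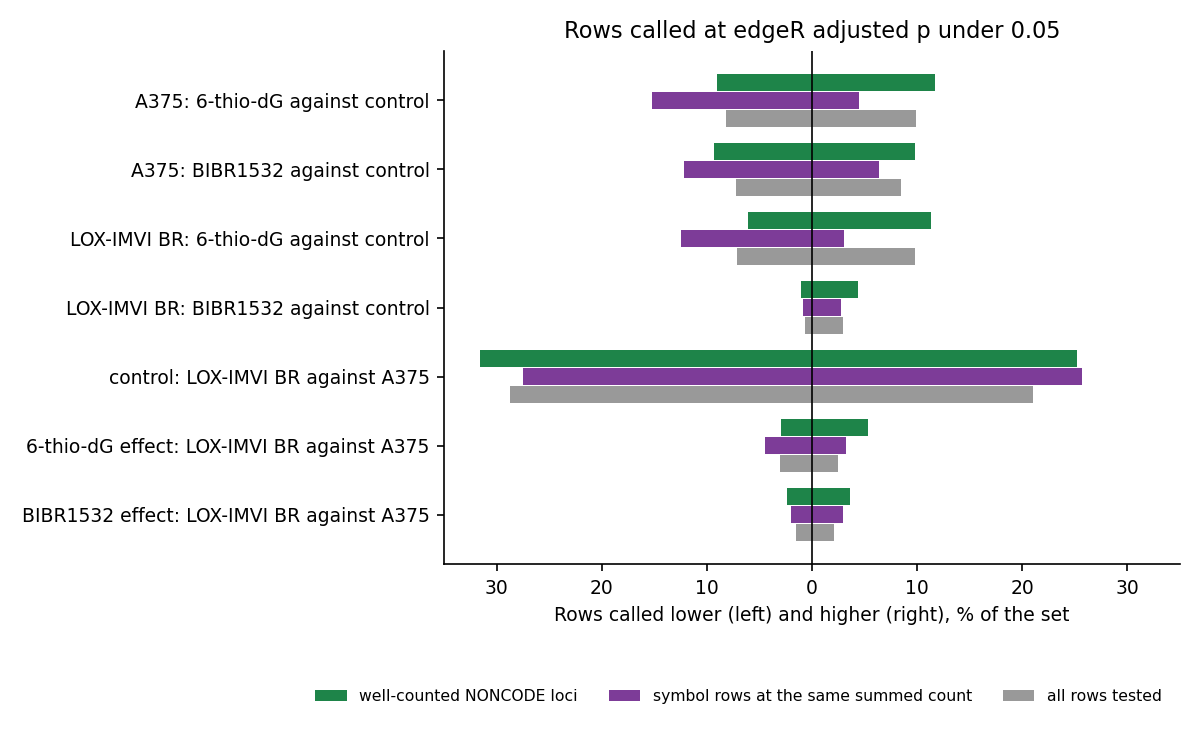
Percent of rows called higher or lower (x axis, adjusted p under 0.05) in each comparison, for the 1913 NONCODE loci, for the 10183 gene-symbol rows at the same count and for all 29114 rows tested. With 6-thio-dG in LOX-IMVI BR 11.3% of the loci were called higher against 3% of the gene-symbol rows and 9.81% of all rows tested. In the control comparison of the lines 56.8% of the loci were called against 49.8% of all rows tested.

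**Figure D3:**
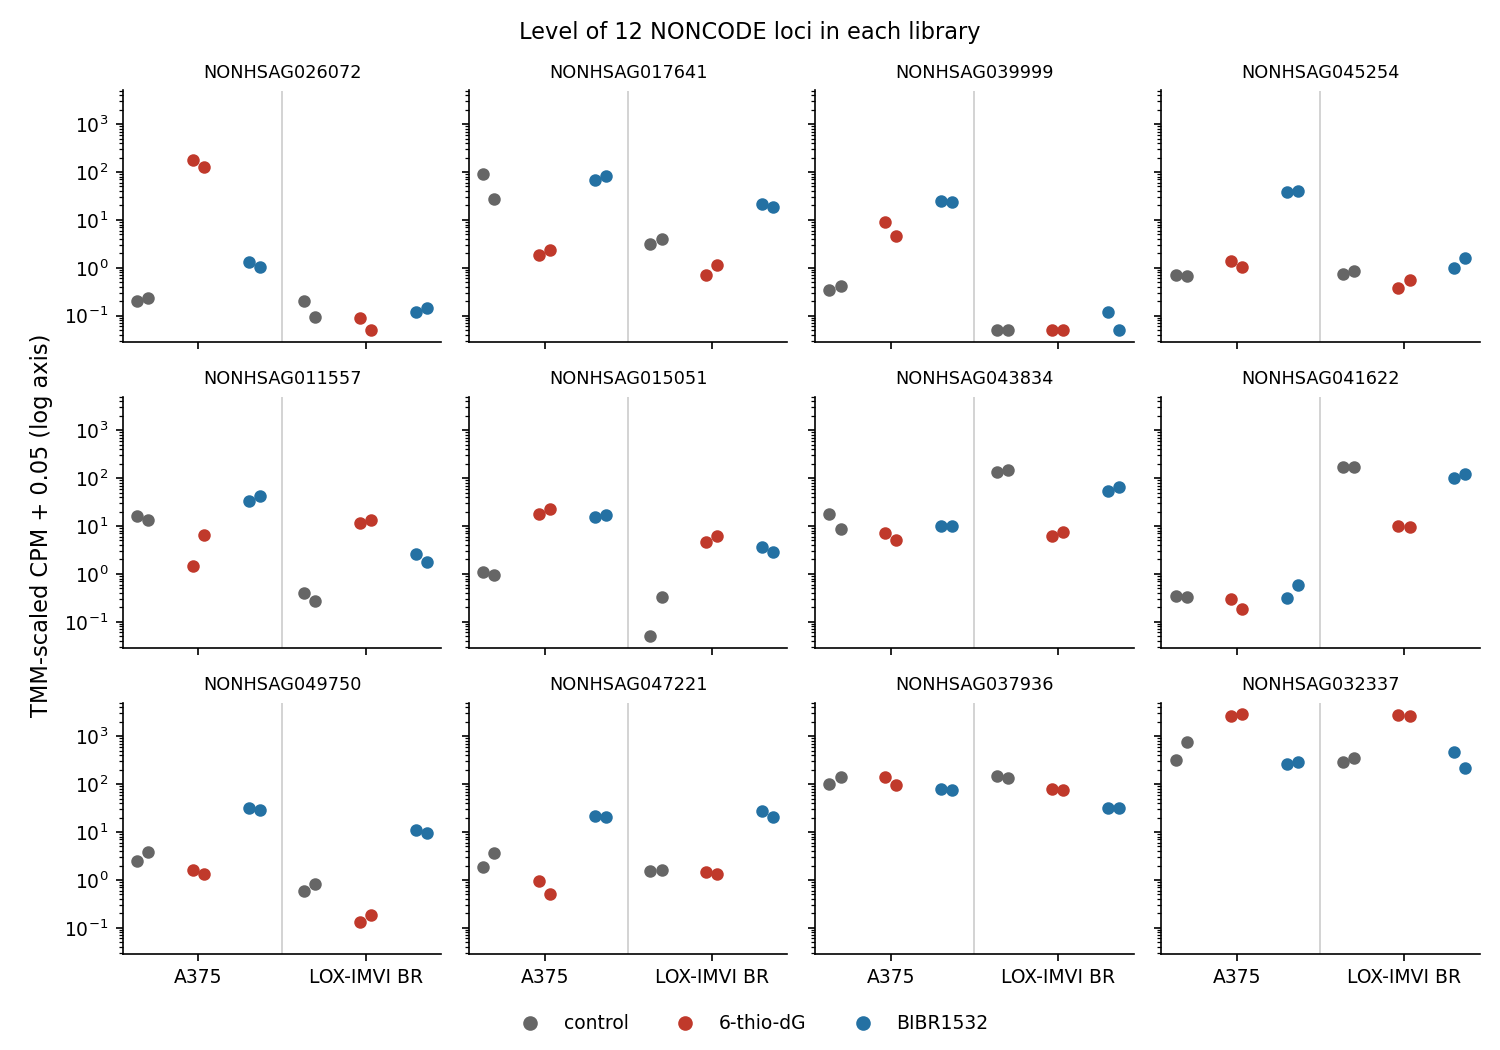
Levels of loci named in the text in the 12 libraries (log10 axis, CPM plus a pseudocount of 0.05), with a point per library. NONHSAG026072 is above 100 CPM in both A375 libraries with 6-thio-dG and under 2 CPM in the other 10, and NONHSAG032337 is above 2500 CPM in all 4 libraries with 6-thio-dG.

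In the fit shared by the lines, more loci were called between the lines than with either compound. Between the controls 483 loci were higher in LOX-IMVI BR and 604 lower, where 21.1% of all rows tested were called higher and 28.8% lower (49.8% either way). The shares of the loci were 25.2% and 31.6%, and the median log2 difference was -0.08. The libraries of 1 line held over 90% of the summed CPM for 12.4% of the loci, 148 in A375 and 89 in LOX-IMVI BR, against 9.79% of the gene-symbol rows at the same count. The 2 largest rises and falls all set a well-counted pair against a pair with no count. NONHSAG025433 had no count in the A375 controls and 19.2 and 19.4 CPM in those of LOX-IMVI BR, at least 243-fold higher against a floor of 3 counts over the group. NONHSAG021725 had no count against 12.5 and 12.3 CPM, at least 156-fold higher. In the other direction NONHSAG052756 stood at 91.4 and 50.2 CPM in the A375 controls with no count in those of LOX-IMVI BR, at least 1110-fold lower. NONHSAG055159 stood at 49.3 and 90.8 CPM in A375, at least 858-fold lower. Of the 1913 loci, 5 had no count in either A375 control and 19 had none in either LOX-IMVI BR control. Both A375 loci of this kind were also called lower in A375 with each compound. NONHSAG052756 changed by -2.48 ± 0.38 with 6-thio-dG (adjusted p = 0.00108) and -1.22 ± 0.36 with BIBR1532 (adjusted p = 0.0363). NONHSAG055159 changed by -1.56 ± 0.37 (adjusted p = 0.0129) and -1.28 ± 0.36 (adjusted p = 0.0336). They had been picked for high levels in these same A375 controls, which favours a fall against them.

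The effect of 6-thio-dG differed between the lines at 159 loci, by the test of the difference itself. It was higher in LOX-IMVI BR at 102 and lower at 57, where 2.48% of all rows tested were called higher and 3.06% lower (5.54% either way). NONHSAG014948 stood at 14.4 and 20.7 CPM in the A375 control and at 1.17 and 3.16 CPM with 6-thio-dG, a log2 change of -2.99 ± 0.41 (adjusted p = 0.000421). In LOX-IMVI BR it went from 1.76 and 2.14 CPM to 12.3 and 11.5 CPM, a rise of 2.6 ± 0.39 (adjusted p = 0.000565). The pairs did not overlap in either line, and the difference between the effects was 5.59 ± 0.57 (adjusted p = 0.000102). For NONHSAG011557, described above, it was 7.26 ± 0.79 (adjusted p = 0.00014). NONHSAG026072 had a difference of -11.87 ± 1.45 (adjusted p = 0.000349), but the LOX-IMVI BR side of it rests on 4 counts in the control pair and 1 with 6-thio-dG. NONHSAG026068 had no count with 6-thio-dG in LOX-IMVI BR, so that its fitted difference depends on the prior count and is no bound. Of the loci called, 60 rose in both lines, 26.8% of those that rose in A375 and 27.6% of those in LOX-IMVI BR, close to 28.4% and 28.5% over all rows tested. There were 15 that fell in both, 8.67% and 12.9%, against 19.2% and 22% over all rows. Called in opposite directions were 24 loci, and 203 of all rows tested.

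The effect of BIBR1532 differed between the lines at 116 loci, 70 higher in LOX-IMVI BR and 46 lower, where 2.09% of all rows tested were called higher and 1.55% lower (3.64% either way). NONHSAG048605 stood at 1.65 and 6.52 CPM in the A375 control and at 0.359 and 0.291 CPM with BIBR1532, a log2 change of -3.54 ± 0.74 (adjusted p = 0.00687). In LOX-IMVI BR it stood at 7.98 and 6.78 CPM and at 22.9 and 17.7 CPM, a log2 difference of 1.46 ± 0.54 that did not pass (adjusted p = 0.19). LOX-IMVI BR with BIBR1532 held 712 of its 1328 summed counts. NONHSAG048605 thus reached the count threshold through that group, which favours a higher effect there. The difference between the effects was 5 ± 0.92 (adjusted p = 0.0109), and it was not called without BIBR1532 replicate 1 or 2 of A375 or without either LOX-IMVI BR control or BIBR1532 replicate 1 of LOX-IMVI BR (adjusted p from 0.0567 to 0.112). NONHSAG010495 had 1034 of its 1264 summed counts in A375 with BIBR1532, so it too reached the threshold through that group. It went from 0.785 and 0.634 CPM to 23.6 and 24.6 CPM in A375. In LOX-IMVI BR it stood at 0.603 and 0.91 CPM against 0.822 and 1.17 CPM. It rose in A375 by 5.04 ± 0.39 (adjusted p = 3.51e-06), and the effect in LOX-IMVI BR was lower (a log2 difference of -4.63 ± 0.57, adjusted p = 0.000783). For NONHSAG045254 this difference was -5.1 ± 0.55 (adjusted p = 0.000369). NONHSAG039457 stood at 6.68 and 7.24 CPM in the LOX-IMVI BR control and at 27.7 and 31.6 CPM with BIBR1532, a rise of 2.09 ± 0.37 (adjusted p = 0.00566), while no A375 library exceeded 0.336 CPM. LOX-IMVI BR with BIBR1532 held 1080 of its 1462 summed counts, so it reached the threshold through that group, which favours its rise. In both lines 34 loci rose, 18.1% of those that rose in A375 and 41% of those in LOX-IMVI BR, against 9.66% and 28.3% over all rows. Called in opposite directions were 5 loci, and 69 of all rows tested.

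The counts of loci whose effect differed between the lines moved widely with single libraries. For 6-thio-dG they ranged from 24 to 336 higher and from 15 to 244 lower over the 8 libraries left out in turn, and were at their highest without A375 6-thio-dG replicate 2. For BIBR1532 they ranged from 5 to 112 and from 8 to 201, highest without A375 control replicate 1. The share of calls that were higher was 64.2% for 6-thio-dG and 53.1% with upper-quartile scaling, and for BIBR1532 it was 60.3%, 40.9% with upper-quartile scaling and 37.2% with factors from gene-symbol rows.

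**Figure D4:**
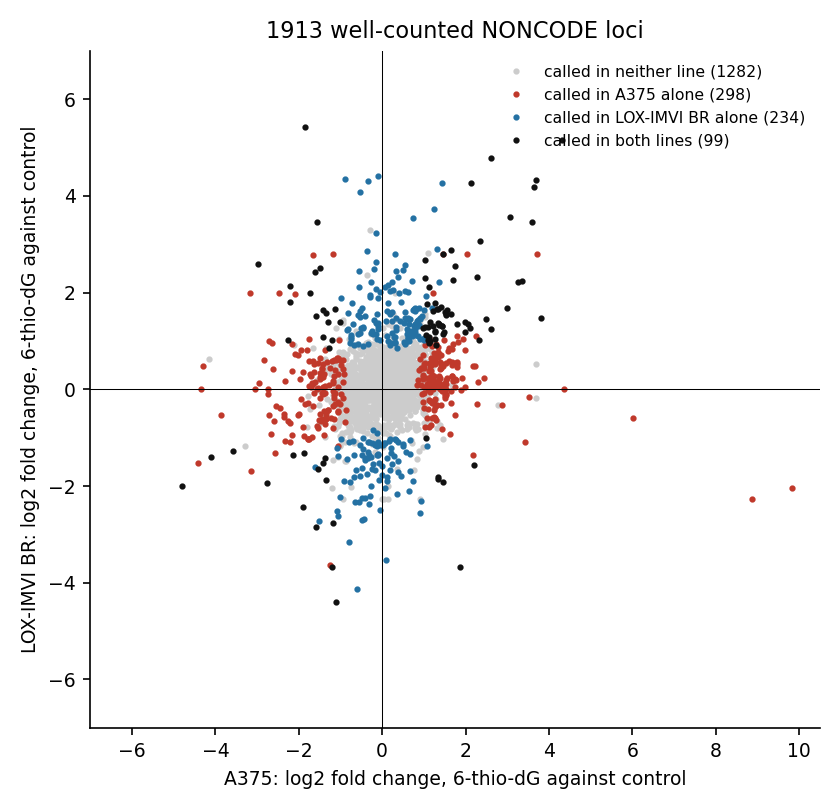
Log2 fold change of each of the 1913 loci with 6-thio-dG against control in A375 (x axis) and in LOX-IMVI BR (y axis), coloured by the line or lines in which the locus was called. Of these, 99 were called in both lines, 298 in A375 alone, 234 in LOX-IMVI BR alone and 1282 in neither, and 24 of the 99 went in opposite directions.

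Over both compounds and both lines, 1090 of the loci (57%) were called in none of the 4 comparisons with control, against 59.9% of gene-symbol rows at the same count and 60.3% of all rows. Since 4 of the 6 groups were treated, a treated group is the likelier one to hold the highest mean level of any row. The highest group was A375 with 6-thio-dG for 391 loci (20.4%) and LOX-IMVI BR with 6-thio-dG for 345 (18%). These shares were close to 19.6% and 17.9% over all rows tested. For gene-symbol rows at the same count they were 12.2% and 8.17%, and for NONCODE rows tested under the threshold 23.8% and 27.2%.

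The changes of loci with consecutive identifiers differed less than those of loci far apart in the numbering. There were 182 pairs whose identifiers differ by 1, and 1813 pairs 100 places apart in the ordered list served for comparison. The median absolute difference in log2 change within a pair was 0.50 for neighbours and 0.85 for distant pairs with 6-thio-dG in A375, and 0.47 against 0.75 in LOX-IMVI BR. With BIBR1532 it was 0.45 against 0.87 in A375 and 0.35 against 0.64 in LOX-IMVI BR. For the control comparison of the lines it was 0.81 against 1.78. Where both neighbours were called with 6-thio-dG they had the same direction in 10 of 12 pairs in A375 and 11 of 11 in LOX-IMVI BR. Among distant pairs with both called, 53.8% and 52.9% had the same direction. With BIBR1532 in LOX-IMVI BR all such pairs agreed, 5 of neighbours and 4 of distant loci. This is a description of the numbering, with no test, since the files give no positions. Whether neighbours share reads or a transcript was not tested, and the counts above do not treat the loci as independent replicates.

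**Figure D5:**
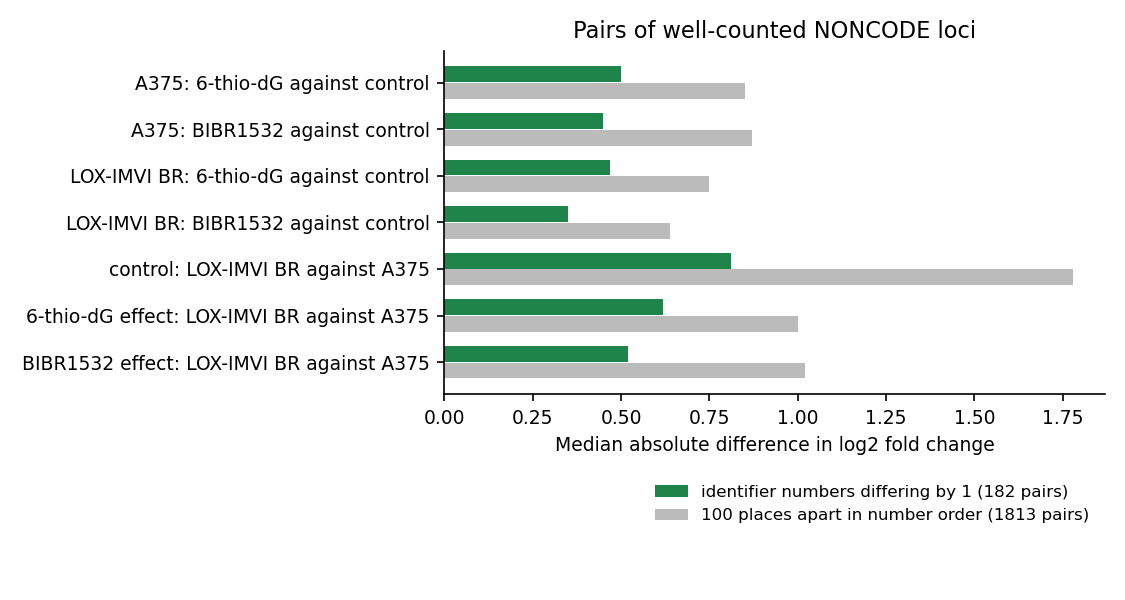
Median absolute difference in log2 fold change (x axis) within pairs of loci, for 182 pairs with consecutive identifiers and 1813 pairs 100 places apart, in each of the 7 comparisons. The neighbours lie closer in every comparison drawn, for example 0.81 against 1.78 for the control comparison of the lines.

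Genes that make, end or degrade long noncoding RNAs carried symbols in the same table and were read from the same fits. Of 26 tested genes of the nuclear exosome and its cofactors, 1 rose and 3 fell with 6-thio-dG in A375, and 1 rose and 5 fell with BIBR1532. The medians were -0.70 and -0.71 against 0.03 and -0.04 over all rows. Gene-symbol rows with at least 1200 summed counts had medians of -0.37 and -0.24, so part of this gap is shared by them. Of those rows 4.43% and 6.33% were called higher and 15.2% and 12.1% lower. Over all rows tested 9.86% and 8.49% were called higher and 8.21% and 7.29% lower. In LOX-IMVI BR none of the 26 was called by edgeR with either compound, and the medians were -0.14 and 0.11. At an unadjusted p under 0.05, 2 were higher and 1 lower with 6-thio-dG and 0 with BIBR1532, and the DESeq2 test called 1 lower with 6-thio-dG. MPHOSPH6, which tethers the helicase of the exosome, fell in A375 from 27.6 ± 3.63 CPM to 7.82 ± 4.33 with 6-thio-dG and 7.13 ± 0.887 with BIBR1532 (log2 changes of -1.81 ± 0.36 and -1.95 ± 0.35, adjusted p = 0.00401 and 0.00285). DIS3, a catalytic ribonuclease of the complex, fell from 116 ± 42.2 to 17.2 ± 6.35 CPM with BIBR1532 in A375 (log2 change -2.75 ± 0.64, adjusted p = 0.0125). EXOSC3, a cap subunit, fell from 105 ± 19.3 to 43 ± 8.14 CPM with 6-thio-dG (-1.29 ± 0.29, adjusted p = 0.0083). SRRT, which links the cap-binding complex to RNA decay, rose with 6-thio-dG in A375 from 79 ± 9.58 to 194 ± 51.7 CPM (1.3 ± 0.29, adjusted p = 0.00781). The A375 libraries fitted alone called none of these genes, and the LOX-IMVI BR libraries alone called 6 higher and 12 lower with 6-thio-dG and 7 and 8 with BIBR1532. Leaving out 1 A375 library at a time left between 3 and 13 lower with 6-thio-dG and between 0 and 8 with BIBR1532.

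The other machinery also had medians below those of all rows in A375. With 6-thio-dG and BIBR1532 they were -0.49 and -0.53 for Integrator and -0.52 and -0.55 for cleavage, polyadenylation and termination. Gene-symbol rows with at least 1200 summed counts had medians of -0.37 and -0.24. Of all rows tested 8.21% and 7.29% were called lower there, and 7.16% with 6-thio-dG in LOX-IMVI BR. Of 16 tested Integrator genes, 1 rose and 1 fell with 6-thio-dG in A375, 2 fell with BIBR1532 there, and 1 fell with 6-thio-dG in LOX-IMVI BR. That one was INTS3, an Integrator subunit, from 148 ± 0.965 to 60 ± 2.32 CPM (-1.3 ± 0.28, adjusted p = 0.00577). Of 24 tested genes of cleavage, polyadenylation and termination, none was called higher by edgeR (1 at an unadjusted p under 0.05 with 6-thio-dG in each line, 0 with BIBR1532), while 4 fell with 6-thio-dG and 5 with BIBR1532 in A375, and 1 fell with 6-thio-dG in LOX-IMVI BR. FIP1L1, a subunit of the cleavage and polyadenylation factor, fell in A375 from 52.4 ± 3.51 to 15.9 ± 6.83 CPM with 6-thio-dG (-1.72 ± 0.32, adjusted p = 0.00296). XRN2, the exonuclease that ends transcription by torpedo, fell with 6-thio-dG from 111 ± 3 to 49.5 ± 29.3 CPM in A375 (-1.16 ± 0.36, adjusted p = 0.0379) and from 265 ± 17.8 to 114 ± 2.38 CPM in LOX-IMVI BR (-1.22 ± 0.36, adjusted p = 0.0302). The calls on INTS3 and XRN2 in LOX-IMVI BR were lost when any 1 of the 4 libraries was left out, and that on XRN2 also with upper-quartile factors, with factors from gene-symbol rows and at 1 CPM in 2 libraries. With each line fitted alone no Integrator or cleavage gene was called in A375, while with 6-thio-dG in LOX-IMVI BR 5 Integrator genes were higher and 7 lower, and 4 cleavage genes were higher and 14 lower. The part of these genes in the results on the loci was not tested.

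Long noncoding RNAs with gene symbols were scarce in the table. Of 118 such symbols looked up, 10 were in the table and 2 were tested, so that no statement on them as a group was possible. MIR34AHG, the host gene of the p53-induced microRNA miR-34a, stood at 5.12 and 5.28 CPM in the LOX-IMVI BR control and at 15.1 and 16 CPM with 6-thio-dG. The pairs did not overlap, and the rise was 1.58 ± 0.41 (adjusted p = 0.0153), a call that was lost when any 1 of the 4 libraries was left out. In A375 it was not called with 6-thio-dG, at 26.4 and 10.2 CPM in the control against 35.2 and 20.3 CPM, where the pairs overlapped. The second tested symbol, TRERF1, codes for a protein and had been listed in error.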

How the data were processed

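RNA sequencing gave 12 libraries of 2 melanoma lines under 3 treatments. The authors deposited 1 table of whole-number counts per row, not normalized. The submitters' processing notes name STAR, Picard, GATK, featureCounts 1.5.1 and the builds hg19 and GRCh37, without their roles. Of 75253 rows, 4 with 2 duplicated names were dropped.

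The test was that of edgeR 4.0.16, run in R 4.3.3 (filterByExpr, TMM, robust quasi-likelihood), fitting 1 mean per line and treatment to all 12 libraries with 6 residual degrees of freedom. The spread was therefore shared by both lines (biological coefficient of variation 25.8%). P-values were Benjamini-Hochberg adjusted over 29114 rows, and a row was called at an adjusted p under 0.05, in 7 comparisons. Counts behind a locus cover counting error only.

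The members and the gene lists were chosen with earlier results of these data known. Named loci were the 2 largest rises and 2 largest falls among called loci of each comparison whose higher group averaged at least 5 CPM and, between groups, no overlap, plus the 3 most counted and the 2 on each side of the threshold. Alternatives were DESeq2 1.42.0 size factors and its test, upper-quartile factors, factors from gene-symbol rows, other filters, a replicate block, each line alone and each library left out.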

Additional observations from a re-analysis of the deposited data

Results flagged for a closer look

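The loci below had effects that differed between the lines, each by the test of the difference itself (edgeR's quasi-likelihood test, adjusted over all rows tested, LOX-IMVI BR minus A375 on the log2 scale). NONHSAG026072, NONHSAG026068, NONHSAG045254, NONHSAG010495, NONHSAG048605 and NONHSAG039457 each reached the count threshold through a single treated group, which favours such a difference.

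For 6-thio-dG the difference was 7.26 at NONHSAG011557 (adjusted p = 0.00014) and 5.59 at NONHSAG014948 (adjusted p = 0.000102), which rose in LOX-IMVI BR and fell in A375. It was 2.81 at NONHSAG017641 (adjusted p = 0.0302) and 2.9 at NONHSAG017640 (adjusted p = 0.0364), both called lower in A375. In LOX-IMVI BR the first was called lower by less and the second was not called (-1.53 ± 0.54, adjusted p = 0.0676). It was -3.29 at NONHSAG043834 (adjusted p = 0.00151) and -3.51 at NONHSAG041622 (adjusted p = 0.0193), both called lower in LOX-IMVI BR. In A375 the first was called lower by less and the second, under 1 CPM in every library, was not called (-0.61 ± 0.63, adjusted p = 0.568). At NONHSAG026072 it was -11.87 (adjusted p = 0.000349) and at NONHSAG026068 -11.14 (adjusted p = 0.0218). Those 2 rest on 5 counts or fewer in the LOX-IMVI BR control and 6-thio-dG libraries, and the call on NONHSAG026068 was lost without LOX-IMVI BR control replicate 2 or either 6-thio-dG replicate.

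For BIBR1532 the difference was -5.1 at NONHSAG045254 (adjusted p = 0.000369), -4.63 at NONHSAG010495 (adjusted p = 0.000783) and -1.89 at NONHSAG020361 (adjusted p = 0.0276). It was 2.3 at NONHSAG017640 (adjusted p = 0.0475), 3.49 at NONHSAG014948 (adjusted p = 0.00343) and 5 at NONHSAG048605 (adjusted p = 0.0109). At NONHSAG039457 it was 6.75 (adjusted p = 0.0309), but no count was seen with BIBR1532 in A375, so that the fitted value depends on the prior count, and leaving out any library of the comparison except A375 control replicate 2 ended the call, as did factors from gene-symbol rows (adjusted p = 0.0538).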

How the results depend on the processing

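The counts of called loci were the least stable values. The A375 libraries alone gave 37 higher and 32 lower with 6-thio-dG and 50 and 20 with BIBR1532, and the LOX-IMVI BR libraries alone gave 764 and 482, and 510 and 544. Upper-quartile factors gave 428 and 105 with 6-thio-dG in A375, 75 lower with 6-thio-dG in LOX-IMVI BR and 75 lower for the line difference of BIBR1532. Factors from gene-symbol rows gave 105 lower with BIBR1532 in A375, 32 lower with it in LOX-IMVI BR and 35 higher for its line difference. No filter on low counts gave 131 and 300 with 6-thio-dG in A375, 42 lower with BIBR1532 in LOX-IMVI BR, 184 higher for the line difference of 6-thio-dG and 155 and 81 for that of BIBR1532, and 1 CPM in 2 libraries gave 35 lower with BIBR1532 in LOX-IMVI BR. The DESeq2 test gave 48 lower there, 168 and 95 for the line difference of 6-thio-dG and 146 and 104 for that of BIBR1532. The cause was not tested.

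Leaving out 1 library at a time gave from 149 to 444 higher and 187 to 372 lower with 6-thio-dG in A375, 67 to 425 and 14 to 181 with BIBR1532 there, 57 to 85 and 37 to 49 with 6-thio-dG in LOX-IMVI BR, 18 to 42 and 1 to 3 with BIBR1532 there, 348 to 634 and 454 to 642 between the controls, 24 to 336 and 15 to 244 for the line difference of 6-thio-dG, and 5 to 112 and 8 to 201 for that of BIBR1532. A pair reduced to 1 library is assumed to vary like the other groups.

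Replicate numbers are shared between groups but no label pairs them, and the deviations of same-numbered libraries correlated between -0.137 and 0.35. With a replicate block the loci called lower with BIBR1532 in LOX-IMVI BR were 11 in place of 21, the Integrator genes called with 6-thio-dG in A375 were 0 higher and 0 lower, and the 43 named tests kept their side of the threshold.

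As a share of NONCODE counts the loci took 76.2%, 70.5% and 69.9% in A375 (control, 6-thio-dG, BIBR1532) and 74.4%, 73.1% and 73.2% in LOX-IMVI BR. Without the 3 most counted loci the share of all counts was 4.38% and 3.83% with 6-thio-dG and BIBR1532 in A375, and 2.97%, 4.42% and 3.15% in LOX-IMVI BR.

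For 3 loci, log2 differences from control that had not passed changed sign. NONHSAG008670 with 6-thio-dG in A375 was 0.11 with upper-quartile factors, 0.79 without control replicate 1 and 0.01 without 6-thio-dG replicate 1, with BIBR1532 there 0.00 without control replicate 2, and with 6-thio-dG in LOX-IMVI BR 0.20 with upper-quartile factors, 0.14 with gene-symbol factors, 0.00 at 1 CPM, 0.01 without control replicate 2 and 0.02 without 6-thio-dG replicate 2. NONHSAG020957 with 6-thio-dG in A375 was 0.18 with upper-quartile factors and 0.42 without control replicate 2, and between the controls 0.38 without A375 control replicate 2. NONHSAG032337 with BIBR1532 in LOX-IMVI BR was -0.02 with upper-quartile factors, -0.04 without control replicate 1 and -0.55 without BIBR1532 replicate 1. Over all libraries left out in turn these ranged from -0.88 to 0.79, 0.00 to 1.67 and -0.12 to 0.02 for NONHSAG008670, from -0.75 to 0.42 and -0.80 to 0.38 for NONHSAG020957, and from -0.55 to 0.54 for NONHSAG032337.

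The gene list settings were chosen after seeing the data. Exosome genes called lower in A375 with 6-thio-dG and BIBR1532 numbered 7 and 8 with the DESeq2 test, 11 and 9 without a filter, 0 and 0 in A375 alone (also 0 and 0 higher), 3 with BIBR1532 at 1 CPM or with gene-symbol factors, and 1 with 6-thio-dG (2 higher) with upper-quartile factors. In LOX-IMVI BR alone 6 were higher and 12 lower with 6-thio-dG and 7 and 8 with BIBR1532, and with 6-thio-dG 1 was lower with DESeq2 and 1 higher with gene-symbol factors, upper-quartile factors or no filter. Integrator genes called lower in A375 with 6-thio-dG numbered 2 at 1 CPM or with DESeq2 size factors (0 higher), 3 with the DESeq2 test, 4 without a filter (0 higher), and 0 with upper-quartile factors or in A375 alone (0 higher). With BIBR1532 there they numbered 0 at 1 CPM, with gene-symbol factors or in A375 alone, 1 with either DESeq2 size factors or upper-quartile factors, and 5 without a filter. In LOX-IMVI BR alone 5 were higher and 7 lower with 6-thio-dG and 3 and 4 with BIBR1532, and 1 was higher with BIBR1532 with the DESeq2 test or no filter. Cleavage genes called lower in A375 with 6-thio-dG numbered 2 with gene-symbol factors (1 higher), 1 with upper-quartile factors (1 higher), 8 without a filter and 0 in A375 alone, and with BIBR1532 3 at 1 CPM, 2 with gene-symbol factors and 0 in A375 alone. With 6-thio-dG in LOX-IMVI BR they numbered 0 (1 higher) at 1 CPM, gene-symbol or upper-quartile factors, 2 without a filter and 14 (4 higher) in that line alone, where BIBR1532 gave 6 higher and 4 lower.

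With 1 library left out, exosome genes in A375 ranged from 1 to 2 higher and 3 to 13 lower with 6-thio-dG and from 0 to 2 and 0 to 8 with BIBR1532. Integrator genes ranged from 0 to 1 higher and 2 to 8 lower with 6-thio-dG and from 0 to 2 lower with BIBR1532 in A375, and were 0 lower with 6-thio-dG in LOX-IMVI BR. Cleavage genes ranged from 0 to 1 higher and 2 to 13 lower, and from 0 to 4 lower, in A375, and were 0 lower with 6-thio-dG in LOX-IMVI BR. Of the 2 symbols tested from the long noncoding list, MIR34AHG and the protein-coding TRERF1, 0 to 2 were higher with either compound in A375, and in LOX-IMVI BR with 6-thio-dG 0 were higher and 0 to 1 lower (TRERF1). Depth limits loci with few counts in 1 line, where line differences rest on single reads.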
